A study of Mus musculus with 11 samples.

Results

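The B lineage was followed through 7 genes chosen by name, Vpreb1, Igll1 and Vpreb3, which mark B cell precursors, and Cd79a, Cd79b, Pax5 and Fcrla, which stay on in mature B cells. All 7 were found among the 18667 genes of the expression tables, and all 7 had a mean of 0.1 FPKM or more (FPKM are fragments scaled to the length of a gene and the size of the library, so a level per length), the filter that left 16169 genes to test. RNA came from whole cochleae of 2-month-old mice on a C57BL/6J background, with 5 Atf6+/+ and 6 Atf6-/- libraries, each described by the study as made from an individual cochlea. Atf6-/- mice are constitutive nulls, made by a stop mutation early in the Atf6 gene, and no other gene or treatment differs between the groups by their labels. Mice were of either sex, the libraries carry no label of sex or batch, and it is not stated whether cochleae of 1 group came from separate mice. The p-values therefore measure the spread between these libraries, which may be partly technical.

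B lymphocytes form in the bone marrow. A pro-B cell committed by the transcription factor PAX5 rearranges its heavy chain genes, and the new heavy chain is then tested at the surface of a pre-B cell together with a surrogate light chain, built from VPREB1 and the lambda-5 protein that Igll1 encodes. CD79A and CD79B are the signalling chains of this pre-B cell receptor and, later, of the B cell receptor, and they are kept until the cell becomes a plasma cell, whereas Vpreb1 and Igll1 are switched off soon after the pre-B stage. VPREB3 is a relative of VPREB1 that binds heavy chains inside precursor cells, and FCRLA is an Fc receptor-like protein that stays inside B cells. None of these genes has a known role in the sensory hair cells of the cochlea.

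All 7 genes were detected at low levels, and the SD of each was larger among the Atf6+/+ libraries, although relative to their means Vpreb1 and Igll1 were also widely spread among the Atf6-/- libraries. For every gene the highest value was in Atf6+/+ replicate 3 or Atf6+/+ replicate 4. All 7 fitted differences were below 0 (limma on log2 of FPKM + 0.1), where 54.7% of all genes tested also lay. None passed an adjusted p under 0.05, which 0.0680% of all genes did. A second rule was adapted from the study, a p without adjustment of 0.05 or less and a log2 fold change beyond 0.05 in size. The study words its cutoff as a fold change above 0.05 and took p from DESeq2, where limma was used here. Of the 7, 1 was lower at this unadjusted rule, Cd79a. That rule took 5.37% of all genes tested in the same direction and 9.85% in either direction. In no member did all the Atf6-/- libraries lie below all the Atf6+/+ libraries, which held for 0.606% of all genes. In bulk tissue, fewer cells of the lineage and less RNA per cell cannot be told apart.

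**Figure D1:**
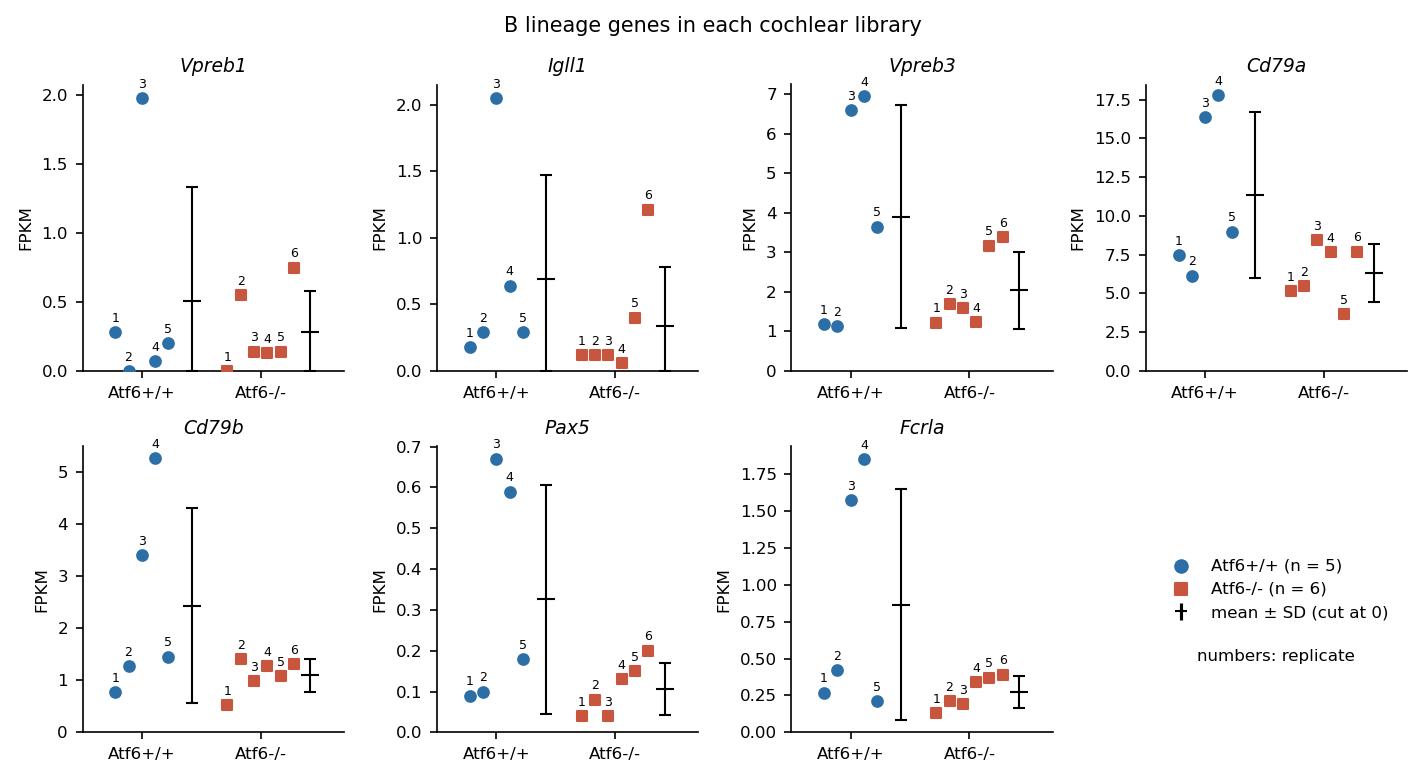
FPKM of each of the 7 B lineage genes (vertical axes, each from 0) in the 5 Atf6+/+ libraries (circles) and the 6 Atf6-/- libraries (squares), numbered by replicate, with the mean and SD beside each group. Atf6+/+ replicates 3 and 4 stand above all other libraries for Vpreb3, Cd79a, Cd79b, Pax5 and Fcrla, while Vpreb1 and Igll1 are highest in Atf6+/+ replicate 3 and then in Atf6-/- replicate 6.

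The libraries were close in overall profile but not in cell type genes. The summed FPKM of a library ran from 462005 to 537926, and Pearson correlations between libraries over genes ran from 0.963 to 0.990. The targeted gene fitted the labels, with Atf6 at 4.27 ± 0.285 FPKM (SD, n = 6) in the Atf6-/- libraries against 9.52 ± 1.11 FPKM (SD, n = 5) in the Atf6+/+ libraries (log2 fold change -1.13, adjusted p = 5.17e-05 by limma). All 7 hair cell genes and all 5 genes of the stria vascularis were found, but not evenly. The hair cell sum was 36.7 and 39.3 FPKM in Atf6+/+ replicates 3 and 4, against 66.0 to 147 FPKM in the other libraries. All 7 genes had fitted differences above 0. Slc26a5 (log2 fold change 1.20) and Ocm (1.16), genes of outer hair cells, were higher in Atf6-/- cochleae at an unadjusted p of 0.0311 and 0.00671 by limma. Their limma adjusted p was 0.475 and 0.391, and the exact permutation test gave 0.0931 and 0.0238. Slc26a5 overlapped between the genotypes. The study itself reports loss of outer hair cells in the basal cochlea of these mice. The stria sum was 66.5 FPKM in Atf6+/+ replicate 4 and 107 to 193 FPKM elsewhere, and Kcne1, a channel subunit of the stria, was at 0.10 FPKM there and at 3.39 to 22.76 FPKM elsewhere. Of the 5 stria genes 1, Kcnj10 (0.37), was higher in Atf6-/- cochleae at the unadjusted rule. All 5 had fitted differences above 0, but Kcne1 was at 0.10 FPKM in Atf6+/+ replicate 4, between 14.1 and 21.46 FPKM in the other Atf6+/+ libraries and between 3.39 and 22.76 FPKM in the Atf6-/- libraries, so its mean FPKM was lower in Atf6-/- cochleae. Their part in the values of the B lineage genes was not tested. Fragment counts were not used here, so depth is unknown. In 58 genes with low values the smallest values above 0 had a median ratio of 1.0 to their own median in every library. Values were rounded to 2 decimals and only those close to the gene's smallest value were taken. The ratio was thus held near 1.0 by this choice and cannot serve as a guide to depth.

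Cd79a, on mouse chromosome 7, was the member with the highest level in every library. It stood at 7.46, 6.15, 16.35, 17.77 and 8.98 FPKM in Atf6+/+ replicates 1 to 5, and in the 6 Atf6-/- libraries it ran from 3.66 through a median of 6.55 to 8.43 FPKM. Atf6+/+ replicates 3 and 4 had about the same value, well above the rest, and 3 of the 6 Atf6-/- libraries lay below the lowest Atf6+/+ library. The means were 11.3 ± 5.34 (SD, n = 5) and 6.34 ± 1.86 FPKM (SD, n = 6), and the fitted level was 1.69-fold lower in Atf6-/- cochleae (log2 fold change -0.76, SE 0.30, 95% interval -1.40 to -0.12, limma unadjusted p = 0.0245, adjusted p = 0.462). The exact two-sided permutation test over libraries, with 462 arrangements, gave p = 0.0519. The unadjusted call was lost without Atf6+/+ replicate 3 (log2 fold change -0.60), without Atf6+/+ replicate 4 (-0.57) and without Atf6-/- replicate 5 (-0.61).

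Cd79b, the partner chain, is on chromosome 11. Its Atf6+/+ values were 0.77, 1.27, 3.40, 5.26 and 1.45 FPKM, and the Atf6-/- libraries ran from 0.52 through a median of 1.175 to 1.41 FPKM. The same pair of Atf6+/+ libraries was again the highest, and the other 3 lay within or just above the Atf6-/- range. This gave a log2 fold change of -0.82 (SE 0.42, 95% interval -1.73 to 0.09, limma unadjusted p = 0.0730). It was -0.47 without Atf6+/+ replicate 4, and -1.13 without Atf6+/+ replicate 1, where it passed the unadjusted rule. Per length, Cd79b was at 10.1% to 29.6% of Cd79a over all 11 libraries, with a mean of 19.5% in Atf6+/+ and 18.5% in Atf6-/- libraries. The ratio of the chains thus covered nearly the same range in both genotypes.

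Pax5, which encodes the commitment factor of the lineage and lies on chromosome 4, had the lowest mean of the members in both genotypes. Its Atf6+/+ values were 0.09, 0.10, 0.67, 0.59 and 0.18 FPKM, and the Atf6-/- values ran from 0.04 through a median of 0.105 to 0.20 FPKM. In Atf6+/+ replicates 1 and 2 Pax5 was within the Atf6-/- range, and only replicates 3 and 4 exceeded the highest Atf6-/- library. The fit gave -0.84 on the log2 scale (SE 0.41, 95% interval -1.74 to 0.06, limma unadjusted p = 0.0642). It ran from -0.56 without Atf6+/+ replicate 3 to -1.07 without Atf6+/+ replicate 1, and passed the unadjusted rule without Atf6+/+ replicate 1, Atf6+/+ replicate 2 or Atf6-/- replicate 6. Since 0.1 FPKM is added before the logarithm, a fold change this near the added value understates the ratio, and it was -0.24 with 1 FPKM added and -1.27 with 0.01 FPKM added.

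Fcrla, on chromosome 1 beside its relative Fcrlb, was at 0.27, 0.42, 1.57, 1.85 and 0.21 FPKM in Atf6+/+ replicates 1 to 5. In Atf6-/- libraries it ran from 0.13 through a median of 0.275 to 0.39 FPKM. It had the most negative log2 fold change of the 7, -1.01 (SE 0.48, 95% interval -2.05 to 0.03, limma unadjusted p = 0.0564), and 57.5% of its FPKM summed over the 11 libraries came from Atf6+/+ replicates 3 and 4. Those libraries held the smallest share for Cd79a, 36.0%. The log2 fold change of Fcrla was -0.65 without Atf6+/+ replicate 4, and it passed the unadjusted rule without Atf6+/+ replicate 1 (-1.25) or Atf6+/+ replicate 5 (-1.31). The neighbour Fcrlb did not go with it: it had 13.96 and 19.20 FPKM in Atf6+/+ replicates 3 and 4, its lowest values, and 28.5 to 50.9 FPKM in all other libraries, with a log2 fold change of 0.54 (limma unadjusted p = 0.0726).

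Among the precursor genes, Vpreb3, on chromosome 10, had the highest level. Its Atf6+/+ values were 1.18, 1.13, 6.59, 6.95 and 3.65 FPKM, and the Atf6-/- libraries ran from 1.22 through a median of 1.63 to 3.38 FPKM. Atf6+/+ replicates 1 and 2 were below every Atf6-/- library, while replicates 3 to 5 were above every one, so the Atf6+/+ group lay on both sides of the Atf6-/- range. Its log2 fold change was -0.64 (SE 0.50, 95% interval -1.72 to 0.44, limma unadjusted p = 0.220). It was -0.36 without Atf6+/+ replicate 3, -0.34 without replicate 4, -0.96 without replicate 1 and -0.97 without replicate 2.

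Igll1, on chromosome 16, was at 0.18, 0.29, 2.05, 0.64 and 0.29 FPKM in the Atf6+/+ libraries, and ran from 0.06 through a median of 0.12 to 1.21 FPKM in the Atf6-/- libraries. All libraries but Atf6+/+ replicates 3 and 4 and Atf6-/- replicate 6 were at or below 0.40 FPKM. Of the 6 Atf6-/- libraries 4 lay below the lowest Atf6+/+ library, but Atf6-/- replicate 6 had the second highest value of all. On the log2 scale the difference was -0.86 (SE 0.61, 95% interval -2.19 to 0.47, limma unadjusted p = 0.185). It was -0.39 without Atf6+/+ replicate 3 and -1.26 without Atf6-/- replicate 6, where it passed the unadjusted rule.

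Vpreb1 is the next gene to Igll1 on chromosome 16. It was at 0.28, 0.00, 1.98, 0.07 and 0.20 FPKM in Atf6+/+ replicates 1 to 5, and ran from 0.00 through a median of 0.14 to 0.75 FPKM in Atf6-/- libraries. Apart from Atf6+/+ replicate 3, the libraries of the genotypes were fully mixed. The log2 fold change was -0.15 (SE 0.74, 95% interval -1.75 to 1.46, limma unadjusted p = 0.847), and it was 0.52 without Atf6+/+ replicate 3 and 0.17 without Atf6-/- replicate 1. The interval allows changes of over 2-fold either way, so the values show neither a difference nor its absence. All 6 nonzero values of at most 0.30 FPKM lay within 0.01 of a whole multiple of 0.0687 FPKM. That step was chosen to fit these same values best, so the match is partly built in. The median library held 2 such steps and 2 libraries held 0. A step found in the same way for Igll1 was 0.0586 FPKM, with a median of 5. If 1 step stands for 1 fragment, these values rest on very few fragments.

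Vpreb1 has a close copy, Vpreb2, and reads may be divided between them. Over 759 aligned bases of their transcripts the genes were 97.4% identical, with a longest identical run of 196 bases. The copies are also alike upstream, where the 106 bases before the Vpreb1 start (RefSeq, GRCm38.p6) match a stretch that ends further upstream of the annotated Vpreb2 start at all but 2 positions, in capitals below, or 98.1%. Vpreb1 is given from chr16:16869256-16869361 on the minus strand and Vpreb2 from chr16:17980315-17980420 on the plus strand, to show how little separates them.
Vpreb1: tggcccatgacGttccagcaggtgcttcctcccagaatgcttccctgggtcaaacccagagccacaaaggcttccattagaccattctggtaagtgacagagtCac
Vpreb2: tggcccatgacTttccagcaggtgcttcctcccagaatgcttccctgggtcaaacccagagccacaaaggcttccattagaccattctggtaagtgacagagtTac

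Vpreb2 was at 0.00, 0.04, 0.41, 0.00 and 0.26 FPKM in Atf6+/+ replicates 1 to 5 and ran from 0.00 through a median of 0.01 to 0.35 FPKM in Atf6-/- libraries. Its highest values were in Atf6+/+ replicate 3 and Atf6-/- replicate 6, the same libraries as for Vpreb1. Summed over the copies, the Atf6+/+ libraries had 0.28, 0.04, 2.39, 0.07 and 0.46 FPKM, and the Atf6-/- libraries ran from 0.04 through a median of 0.145 to 1.10 FPKM. The library order at the top was the one that Vpreb1 gave alone. How reads were divided between the copies was not tested. In GENCODE M21 (GRCm38), Vpreb1 also shares 108 bases with the start of Top3b on the opposite strand, and the antisense gene Gm12462 lies within Pax5. The library kit keeps the strand, but whether counting used it is not given in the sources used here.

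The precursor genes and the others were then compared within each library. The mean log2(FPKM + 0.1) of Vpreb1, Igll1 and Vpreb3 minus that of Cd79a, Cd79b, Pax5 and Fcrla was -0.68, -1.42, 0.08, -1.81 and -0.47 in Atf6+/+ replicates 1 to 5. In the Atf6-/- libraries this difference ran from -1.48 through a median of -0.60 to 0.48. The group means were -0.86 (SD 0.76, n = 5) and -0.55 (SD 0.67, n = 6), so they lay 0.31 apart, less than the SD of either group, and the ranges overlapped from -1.48 to 0.08. The distance was 0.55 without Atf6+/+ replicate 3, 0.50 without Atf6-/- replicate 4, 0.17 without Atf6+/+ replicate 2, 0.10 without Atf6-/- replicate 6 and 0.07 without Atf6+/+ replicate 4. The balance of these precursor genes to the others was thus not separable by genotype at this spread. Vpreb3 varied over libraries with Pax5 (Pearson's r = 0.895) and Cd79b (0.792) as well as with Igll1 (0.785), and less with Vpreb1 (0.495). The score is therefore not a clean measure of precursor RNA. No p-value is given for this score, because its genes were chosen with results of these data known.

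**Figure D2:**
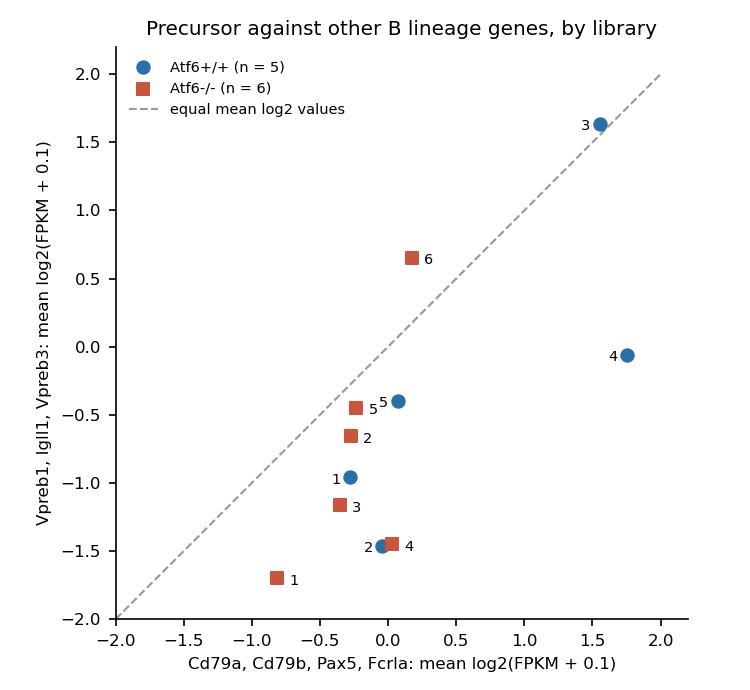
Mean log2(FPKM + 0.1) of the precursor genes Vpreb1, Igll1 and Vpreb3 (vertical axis) against that of Cd79a, Cd79b, Pax5 and Fcrla (horizontal axis), 1 point per library, numbered by replicate, with a dashed line where both are equal. Atf6+/+ replicates 3 and 4 share the right edge but lie at 1.63 and -0.06 on the precursor axis, and Atf6-/- replicate 6 lies farthest above the line.

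The libraries with the most B lineage RNA were not alike in its make-up. Atf6+/+ replicates 3 and 4 had nearly equal Cd79a (16.35 and 17.77 FPKM) and Vpreb3 (6.59 and 6.95 FPKM). In replicate 3, Vpreb1 was at 12.1% and Igll1 at 12.5% of Cd79a, whereas in replicate 4 Vpreb1 was at 0.394% and Igll1 at 3.60%. Dntt, the terminal transferase of cells that rearrange their heavy chain genes, was at 1.14 FPKM in replicate 3 and 0.14 FPKM in replicate 4. Rag1, which encodes a subunit of the recombinase, was at 0.66 and 0.25 FPKM in them. The pair thus differed in surrogate light chain and recombination genes while being close in Cd79a and Vpreb3.

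Atf6-/- replicates 5 and 6 had the highest Igll1 and Vpreb3 relative to Cd79a of their group. In replicate 6, Igll1 was at 15.7% and Vpreb1 at 9.74% of Cd79a, shares near those of Atf6+/+ replicate 3, with Cd79a at 7.70 against 16.35 FPKM. Atf6-/- replicate 5 had the lowest Cd79a of all libraries, 3.66 FPKM, but Vpreb3 at 3.17 FPKM, or 86.6% of Cd79a, and Igll1 at 10.9%. In the remaining 4 Atf6-/- libraries Igll1 was between 0.785% and 2.34% of Cd79a. Vpreb1 did not follow this split, being at 10.1% of Cd79a in Atf6-/- replicate 2 and at 3.83% in replicate 5. Over all libraries Vpreb3 was between 15.8% and 86.6% of Cd79a, so Cd79a exceeded Vpreb3 in each of them.

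Ordered by mean FPKM, Cd79a led in both genotypes, followed by Vpreb3 and Cd79b, and Pax5 was last. Between them came Fcrla (0.864 ± 0.782), Igll1 (0.690 ± 0.780) and Vpreb1 (0.506 ± 0.831, SD, n = 5 each) in Atf6+/+ libraries. In Atf6-/- libraries the middle order was Igll1 (0.338 ± 0.444), Vpreb1 (0.285 ± 0.295) and Fcrla (0.272 ± 0.109, SD, n = 6 each). These 3 neighbours did not differ beyond their spread in either genotype. Cd79b (2.43 ± 1.87 and 1.10 ± 0.323) and Vpreb3 (3.90 ± 2.81 and 2.04 ± 0.974) overlapped in range in both.

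Once each library was centred on its genotype's mean, the 7 genes varied together over the 11 libraries. Pearson's r of their log2 values lay between 0.354 (Vpreb1 with Fcrla) and 0.915 (Pax5 with Fcrla) over the 21 pairs. These are descriptions, since the pairs share the same libraries and the high values come from few of them. The 10 other genes of highest likeness to the members' mean, among 16162, were Spib (r = 0.965), Gmip, Plekha5, Fpr1, Blk, Prg3, Dpysl3, Pou2af1, Myo1a and Ms4a1 (r = 0.908). Of these, 4 are in the B lineage lists below. Spib encodes a transcription factor of B cells, Blk a kinase of the B cell receptor, Pou2af1 a coactivator of octamer-binding factors and Ms4a1 the surface protein CD20. Fpr1, a receptor of neutrophils for bacterial peptides, and Prg3, an eosinophil granule protein, come from other blood cells.

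The promoters of the members whose levels set the above contrasts are shown with a few short motifs of B cell transcription factors, because the members varied together across libraries. The set of RefSeq promoter windows used here (GRCm38.p6) gave the 250 bases before the start of 6 of the 7 members, and held none for Cd79b. The windows are Vpreb1, chr16:16869256-16869505 (minus strand), Igll1, chr16:16863986-16864235 (minus strand), Vpreb3, chr10:75948050-75948299 (plus strand), and Cd79a, chr7:24897247-24897496 (plus strand). Each is written 5' to 3' toward the start site, with motif matches on either strand in capitals.
Vpreb1: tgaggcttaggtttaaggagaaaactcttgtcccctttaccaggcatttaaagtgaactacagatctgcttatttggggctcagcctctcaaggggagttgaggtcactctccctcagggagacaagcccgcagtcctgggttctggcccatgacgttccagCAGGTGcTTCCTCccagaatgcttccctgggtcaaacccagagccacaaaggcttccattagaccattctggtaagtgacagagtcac
Igll1: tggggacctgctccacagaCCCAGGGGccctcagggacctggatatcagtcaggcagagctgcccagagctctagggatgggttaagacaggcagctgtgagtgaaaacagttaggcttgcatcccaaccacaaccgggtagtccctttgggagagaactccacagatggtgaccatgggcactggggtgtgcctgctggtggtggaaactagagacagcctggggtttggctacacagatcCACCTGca
Vpreb3: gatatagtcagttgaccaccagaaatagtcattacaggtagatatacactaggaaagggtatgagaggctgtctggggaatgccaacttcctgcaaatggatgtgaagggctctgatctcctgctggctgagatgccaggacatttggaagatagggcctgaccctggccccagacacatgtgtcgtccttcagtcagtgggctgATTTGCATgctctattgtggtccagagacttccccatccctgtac
Cd79a: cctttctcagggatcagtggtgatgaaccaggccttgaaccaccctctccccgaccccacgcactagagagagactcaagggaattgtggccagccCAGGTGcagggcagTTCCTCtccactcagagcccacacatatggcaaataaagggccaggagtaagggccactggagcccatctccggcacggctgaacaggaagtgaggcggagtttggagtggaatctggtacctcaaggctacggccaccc

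The Vpreb1 and Cd79a windows each held an E-box (CAGGTG, bound by E2A proteins), 88 and 154 bases before the start, followed at 81 and 140 bases by a PU.1 core (GAGGAA) on the opposite strand. Fcrla had the same order, with an E-box at 69 and a PU.1 core at 37 bases before the start. In Igll1 an EBF1 core (CCCNNGGG) lay 231 bases and an E-box 8 bases before the start, and Vpreb3 held an octamer (ATGCAAAT), the site of OCT2, 45 bases before it. Pax5 held none of the motifs, and none of the 6 members searched held an Ikaros core (TGGGAA). Among 32851 promoter windows of this length, 17.2% held the E-box, 23.3% the PU.1 core, 11.8% the EBF1 core, 21.6% the Ikaros core and 1.60% the octamer, so the octamer was the rarest of them. Both strands were searched and no motif overlapped another in these windows. A match describes the letters of a window only, and binding was not measured.

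The rest of the lineage was read from 5 lists holding 55 further genes, of which 46 were tested. Of these, 37 had fitted differences below 0, and 16 (34.8%) were lower in Atf6-/- cochleae at the unadjusted rule, against 5.37% of all genes tested. None was higher at that rule, and none reached an adjusted p under 0.05 by limma. The exact permutation test gave p above 0.05 for Pik3ap1 (0.0519), Il7r (0.0584), Pou2af1 (0.0693), Blk (0.0758), Ms4a1 (0.0758) and Jchain (0.0801). It gave p below 0.05 for the rest of the 16. The median log2 fold change of the 46 was -0.45, against -0.01 over all genes. Of the 46, 9 were lower without Atf6+/+ replicate 3, 9 without Atf6+/+ replicate 4 and 4 without both. These libraries had the highest Cd79a and lie in the group with the higher levels. A fall in the count thus follows partly from their choice and from the smaller groups. The count was 11 without Atf6-/- replicate 1, 11 without Atf6-/- replicate 5 and 20 without Atf6+/+ replicate 1.

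**Figure D3:**
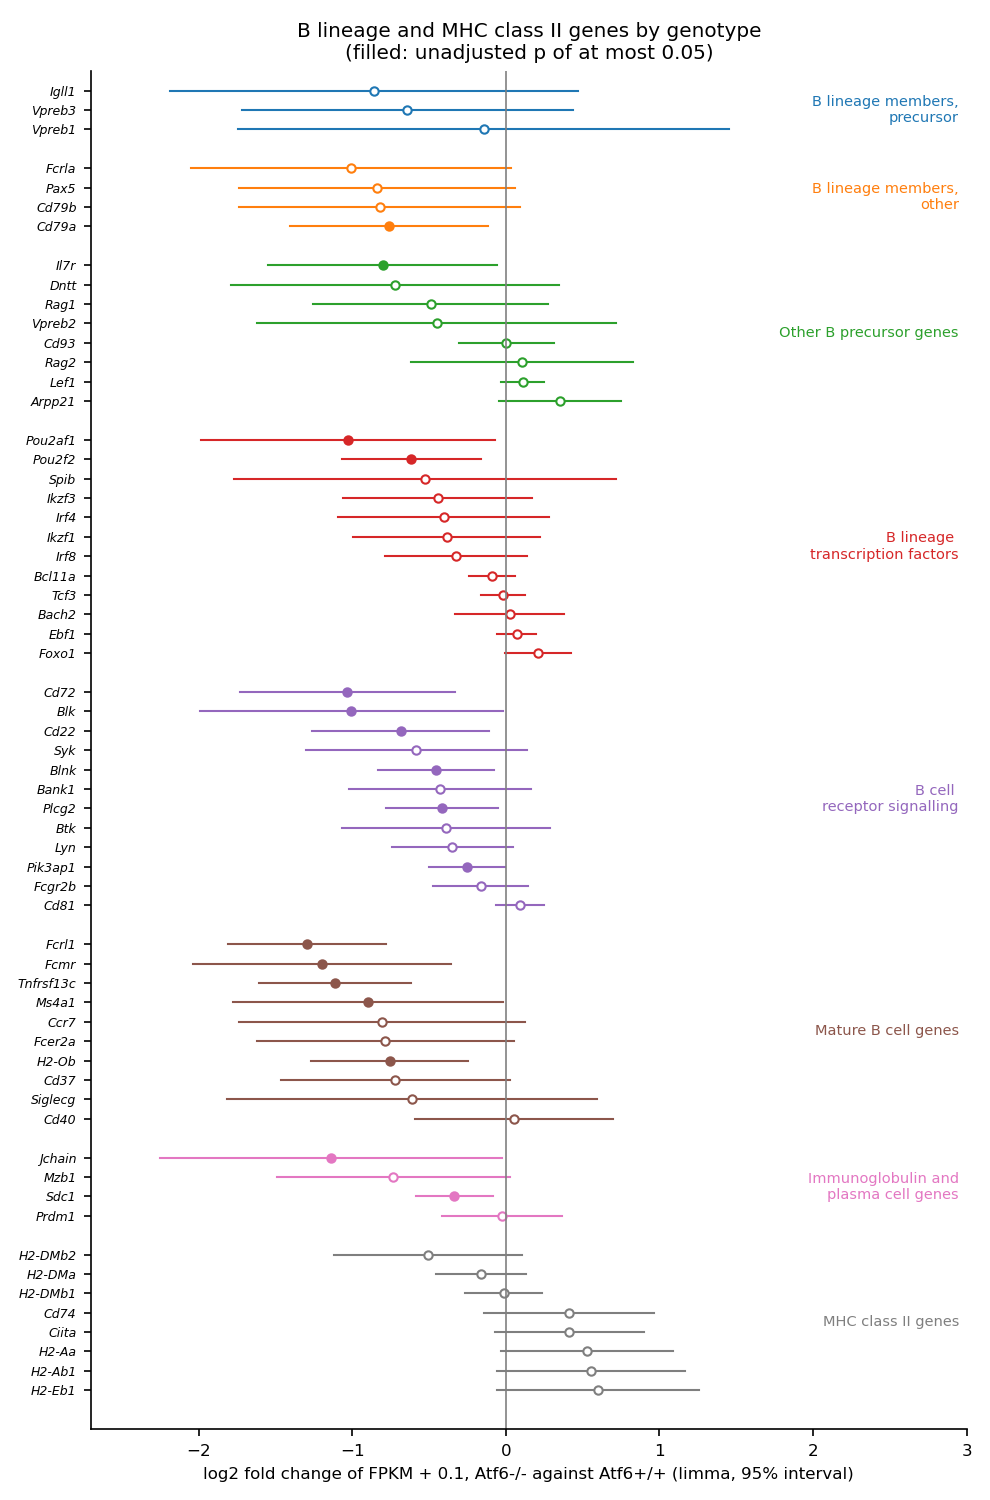
Log2 fold change of FPKM + 0.1 in Atf6-/- against Atf6+/+ cochleae (horizontal axis, points, with 95% limma intervals as lines) for the 7 members, the genes of the 5 other B lineage lists and the MHC class II genes, grouped by list, with filled points at an unadjusted p of at most 0.05. Filled points make up 6 of 12 receptor signalling genes, 5 of 10 mature B cell genes and 2 of 4 plasma cell genes, and all of them lie left of 0.

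Among the 5 other B lineage lists, mature B cell genes had the lowest median log2 fold change, -0.79, with 5 of 10 tested genes lower at the unadjusted rule. Fcrl1, an Fc receptor-like surface protein of mature B cells, was at 0.21, 0.25, 0.58, 0.36 and 0.23 FPKM in Atf6+/+ replicates 1 to 5. In Atf6-/- libraries it lay between 0.05 and 0.08 FPKM, below every Atf6+/+ library. Its log2 fold change was -1.29 (SE 0.24, limma adjusted p = 0.0882, exact permutation p = 0.002165, the smallest that 462 arrangements allow), and it was -0.99 without Atf6+/+ replicates 3 and 4. In the fit with no filter on low values Fcrl1 reached a limma adjusted p of 0.0459, in a range of 0.0459 to 0.742 over the alternatives. The Atf6-/- values lie below the added 0.1 FPKM, and the log2 fold change was -0.31 with 1 FPKM added and -2.05 with 0.01 FPKM added.

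Tnfrsf13c, the receptor for the B cell survival factor BAFF, was at 5.15, 3.63, 4.89, 5.91 and 3.33 FPKM in the Atf6+/+ libraries and between 1.47 and 3.47 FPKM in the Atf6-/- libraries. The groups overlapped through Atf6-/- replicate 6 alone, and the high values were not confined to Atf6+/+ replicates 3 and 4. Its fitted log2 fold change was -1.11 (SE 0.23, limma adjusted p = 0.133, exact permutation p = 0.00649), and -0.94 without those 2 libraries. Fcmr, the receptor for IgM (-1.20), Ms4a1 (-0.90) and H2-Ob, a chain of the peptide-loading regulator of B cells (-0.76), were also lower at the unadjusted rule, the call of Ms4a1 holding in 5 of the 11 fits without 1 library and those of Fcmr and H2-Ob in all. Cr2 and Cxcr5 were too low to be tested.

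Of 12 genes of B cell receptor signalling, 6 were lower at the unadjusted rule, with a median log2 fold change of -0.42 over the list. Cd72, a coreceptor that dampens the signal, was at 1.29, 1.97, 3.42, 4.13 and 4.92 FPKM in Atf6+/+ replicates 1 to 5 and ran from 0.79 to 1.93 FPKM in Atf6-/- libraries. Here Atf6+/+ replicate 5 was the highest, and only replicate 1 lay in the Atf6-/- range. The log2 fold change was -1.03 (SE 0.32, limma unadjusted p = 0.00734, adjusted p = 0.397), and -0.77 without Atf6+/+ replicates 3 and 4. The others were Blk (-1.01), Cd22 (-0.68), Blnk (-0.46), Plcg2 (-0.42) and Pik3ap1 (-0.25), which encode a coreceptor, a kinase, a phospholipase and adaptors of the receptor. The unadjusted call held in 3 of the 11 fits without 1 library for Blk, in 4 for Pik3ap1 (-0.16 without Atf6-/- replicate 5), in 8 for Plcg2 (-0.28 without Atf6+/+ replicate 3), in 9 for Cd22 and in 10 for Blnk. Cd81, a membrane protein that many cell types make, was at 259 and 277 FPKM on average (log2 fold change 0.09).

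The transcription factors gave fewer calls, 2 of 12, with a median of -0.36. Pou2af1, at 0.852 and 0.303 FPKM on average, had a log2 fold change of -1.03, and Pou2f2, the gene of OCT2, one of -0.62 (limma unadjusted p = 0.0375 and 0.0118), and without 1 library these calls held in 5 and 11 of the 11 fits. Ebf1, a factor of the earliest B precursors that stromal cells also make, was at 22.1 and 23.2 FPKM (log2 fold change 0.07), above every member in every library, and Tcf3, which encodes the E2A proteins, was at 20.9 and 20.7 FPKM. Among other precursor genes 1 of 8 was lower at the unadjusted rule, Il7r (-0.80, with the call held in 5 of the 11 fits without 1 library), the receptor for interleukin 7, and the median was -0.22. Rag1 (-0.49) and Dntt (-0.72) were highest in Atf6+/+ replicate 3 and did not pass the rule. Of the plasma cell genes 2 of 4 tested were lower at it, Jchain (-1.14, with the call held in 4 of those 11 fits), the joining chain of secreted IgM and IgA, and Sdc1 (-0.33), which epithelia also make. The immunoglobulin chain genes Ighm, Ighd, Igkc and Iglc1 to Iglc3 were looked for by symbol but not found in the expression tables.

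MHC class II genes, which B cells share with macrophages and dendritic cells, had fitted differences on both sides of 0, 5 of 8 above it. The summed FPKM of the 8 genes was 152, 175, 250, 279 and 276 in Atf6+/+ replicates 1 to 5, and ran from 153 through a median of 321 to 422 in Atf6-/- libraries. None of the 8 passed the unadjusted rule, with a median log2 fold change of 0.41 and values of 0.53 for H2-Aa, 0.56 for H2-Ab1 and 0.60 for H2-Eb1. The 3 below 0 were the peptide-loading genes H2-DMa (-0.16), H2-DMb1 (-0.01) and H2-DMb2 (-0.51). The 8 macrophage genes had no call either (median -0.17). The class II sum, most of it Cd74 and the H2-A and H2-E genes, was highest in Atf6-/- replicate 3, whereas H2-DMa was highest in Atf6+/+ replicates 3 and 4 (11.90 and 11.53 FPKM) and H2-DMb2 in Atf6+/+ replicate 4 (1.47 FPKM). H2-DMb1 was highest in Atf6-/- replicate 3 (18.20 FPKM), like the sum.

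Genes of neutrophils and red cells had differences of the same sign, with their high values partly in other libraries. All 13 neutrophil genes had fitted differences below 0, 6 of them lower at the unadjusted rule (median -1.47), with summed levels of 547, 623, 3502, 1380 and 282 FPKM in Atf6+/+ replicates 1 to 5 and 113 to 1355 FPKM in Atf6-/- libraries. The count was 1 without Atf6+/+ replicate 3, 1 without Atf6+/+ replicate 4, 2 without Atf6-/- replicate 1 and 2 without Atf6-/- replicate 5. All 12 erythroid genes were also below 0, 8 of them lower at the rule (median -1.32), with 4841 to 46411 FPKM in Atf6+/+ and 2875 to 9393 FPKM in Atf6-/- libraries. No gene of these lists was at 0 in any library. Of 8 T cell genes 6 were tested, 3 were lower at the rule and 1, Cd3e, was above 0 (0.06), but their sum was only 2.10 to 4.84 FPKM, and of 5 natural killer cell genes 2 were tested and 1 was lower.

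Genes of bone and of the stroma that supports B precursors were also read. Of 8 osteoblast and bone matrix genes 7 had fitted differences below 0 (median -0.43), among them Col1a1 (-0.67) and Bglap (-0.66), and none passed the unadjusted rule. Their sum ran from 2090 to 3786 FPKM in Atf6+/+ and from 2034 to 2592 FPKM in Atf6-/- libraries, and was highest in Atf6+/+ replicate 5. Of 6 stroma genes 5 were below 0 (median -0.16), with Cxcl12, a chemokine that holds B precursors in the marrow, lower (-0.25, limma unadjusted p = 0.0349) and Vcam1 higher (0.24, limma unadjusted p = 0.0369) at the rule. The stroma sum ran from 79.9 to 96.0 FPKM in Atf6+/+ and from 75.3 to 88.8 FPKM in Atf6-/- libraries. The part of bone or stroma in the B lineage values was not tested.

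The lineages followed one another in part. Neutrophil genes were highest in Atf6+/+ replicate 3 and then in Atf6+/+ replicate 4, the libraries with the most Cd79a, but Atf6-/- replicate 4 (1355 FPKM) equalled Atf6+/+ replicate 4 (1380 FPKM) although its Cd79a was 7.64 against 17.77 FPKM. The erythroid sum, most of it globin, was highest in Atf6+/+ replicate 5, where Cd79a was 8.98 FPKM, whereas 7 of the 12 erythroid genes, among them Ahsp and Slc4a1, were highest in Atf6+/+ replicate 3. Of 8 proliferation genes 2 were lower at the unadjusted rule (median -0.67), and they summed to 38.0 FPKM in Atf6+/+ replicate 3, 20.6 in Atf6-/- replicate 4 and at most 16.5 elsewhere. The highest proliferation thus coincided with the highest Vpreb1 and Igll1, but the second did not.

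**Figure D4:**
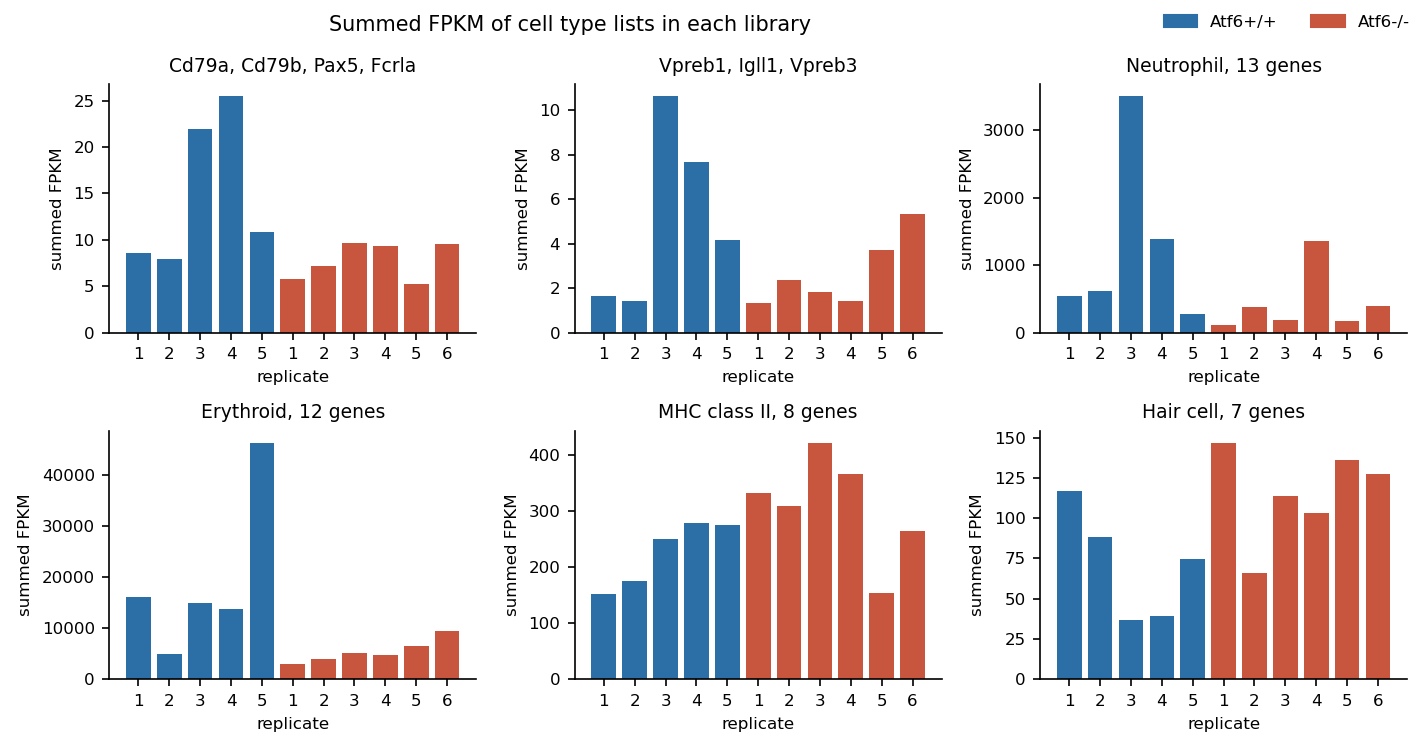
Summed FPKM (vertical axes, from 0) of 6 gene lists in each library (bars, numbered by replicate, blue Atf6+/+ and red Atf6-/-). B lineage genes peak in Atf6+/+ replicates 3 and 4, neutrophil genes in Atf6+/+ replicate 3, the erythroid sum, most of it globin, in Atf6+/+ replicate 5 and MHC class II genes in Atf6-/- replicate 3.

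With the mean of the neutrophil and erythroid levels added to the model, the genotype difference of every member came closer to 0 or changed sign. The log2 fold changes were then -0.27 for Cd79a, -0.08 for Cd79b, -0.08 for Pax5 and -0.16 for Fcrla, and 0.01 for Igll1, 0.0034 for Vpreb3 and 1.36 for Vpreb1. None passed the unadjusted rule. Of the 46 other B lineage genes 6 were still lower, namely Fcrl1 (-1.04), Tnfrsf13c (-0.86), Cd72 (-1.18), Blnk (-0.50), Pik3ap1 (-0.34) and Sdc1 (-0.35). Atf6+/+ replicates 3 and 4 had the highest Cd79a and lie in the higher group, so leaving them out shrinks such differences in part by choice. Without them, values of -0.28 for Cd79a, -0.09 for Cd79b, -0.15 for Pax5 and -0.13 for Fcrla were found. Fcrl1, Tnfrsf13c, Pik3ap1 and Sdc1 were the 4 other genes still lower. These fits do not separate the part of other blood cells from genotype, and that part was not tested.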

How the data were processed

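RNA was measured in whole cochleae, 5 Atf6+/+ and 6 Atf6-/- libraries. According to the submitters' processing notes, the authors aligned reads to GRCm39 with HISAT2 2.0.4, and the deposited FPKM values came from RSEM 1.2.12 (the study's methods name another release). Libraries were stranded mRNA. The authors' DESeq2 1.4.5 comparison was not used.

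FPKM + 0.1 was log2-transformed, and genes averaging 0.1 FPKM or more were fitted on genotype with limma 3.58.1 in R 4.3.3. The fit used a mean-variance trend and two-sided tests, and p-values were adjusted by Benjamini and Hochberg's method over every gene fitted. Single genes also had an exact two-sided permutation test over libraries. The limma fit was tested on simulated data. FPKM hold no read counts, so counting intervals could not be given. Genes named are the 7 members, genes of the lists reported, Atf6 and the 10 genes most like the members by genotype-centred correlation, with Top3b and Gm12462 named only as genes that overlap a member. The members and lists were chosen with earlier results of these data known. Alternatives were other pseudocounts, filters, scalings and variance estimates, a replicate block, a blood cell covariate and leaving out libraries; leaving out Atf6+/+ replicates 3 and 4 together was chosen after seeing the data. A further gene of B cell receptor signalling was left out of its list and is not reported here.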

Additional observations from a re-analysis of the deposited data

Results flagged for a closer look

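Of 16 groups examined, the 7 members and the precursor difference in each genotype, 3 had a library far from the others by Dixon's criterion. Its rate of about 1 in 20 groups holds for independent groups of normally distributed values. The members were taken as FPKM and not on the log2 scale, where high values stand out less. Vpreb1 and Igll1 also varied together (Pearson's r = 0.640), so the count cannot be set against that rate. Vpreb1 in Atf6+/+ replicate 3 was at 1.98 FPKM, with a gap to the next library of 0.859 of the group's range (critical value 0.710). Igll1 in the same library was at 2.05 FPKM, with a gap of 0.754 of the range. In Atf6-/- replicate 6, Igll1 was at 1.21 FPKM, with a gap of 0.704 of the range (critical value 0.625). All 3 were high values of the surrogate light chain genes. Cd79a, Cd79b, Pax5, Fcrla and Vpreb3 had no such library, and in each of them Atf6+/+ replicates 3 and 4 were both high.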

How the results depend on the processing

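No member reached an adjusted p under 0.05 in any of the alternatives run. Cd79a, Cd79b, Pax5 and Fcrla kept their direction in all of them. Vpreb1 turned to 1.36 with the blood cell covariate and 0.42 without Atf6+/+ replicates 3 and 4, and ran from -0.58 to 0.52 when 1 library was left out (0.17 without Atf6-/- replicate 1). Igll1 turned to 0.0077 with the covariate and shrank from -0.86 to -0.12 without both libraries. Vpreb3 turned to 0.0034 with the covariate and 0.13 without both libraries. The number of members lower at the unadjusted rule, 1, became 0 with the covariate, 0 without both libraries and 0 to 4 with 1 library left out (4 without Atf6+/+ replicate 1, 3 without Atf6-/- replicate 6, 2 without Atf6+/+ replicate 2 or 5, and 0 without Atf6+/+ replicate 3 or 4 or Atf6-/- replicate 5). The 16 other B lineage genes became 7 of 24 tested (from 46) at a mean of at least 1 FPKM, 6 with the covariate, 4 without both libraries and 9 to 20 with 1 library left out, and 1 of them, Fcrl1, reached the adjusted p with no filter. Neutrophil genes (6) became 0 with the covariate, 0 without both libraries and 1 to 9 with 1 left out, and erythroid genes (8) became 0, 5 and 7 to 10, where the covariate is built from these same genes and so removes their calls by construction. With 1 FPKM added the fold changes of Igll1, Fcrla and Pax5 were -0.29, -0.46 and -0.24, and with 0.01 FPKM -1.19, -1.19 and -1.27. Over all genes, the 11 adjusted calls became 4 with the block and 6 with the covariate, and the 1592 unadjusted calls 915 with the covariate and 1001 without both libraries. The cause of these shifts was not tested. The filter at 1 FPKM left Vpreb3, Cd79a and Cd79b of the members.

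With the replicate block, which also drops Atf6-/- replicate 6 because it has no partner, 5 members were lower at the unadjusted rule in place of 1, and 3 were without that library and with no block. The numbers do not pair the libraries: correlations of same-numbered deviations ran from -0.21 to 0.12, 1 of 5 was above 0.1, and 1 of 5 libraries correlated best with its own number.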
